A study of Mus musculus with 2 samples.

Results

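The genes described here encode enzymes that modify or remodel chromatin, together with the subunits and readers that work with them. They were taken by gene symbol: the Hdac, Sirt, Kdm, Dnmt, Tet, Ezh, Cbx, Chd and Smarc genes with Eed, Suz12, Rnf2 and Bmi1, without Hdac1, Hdac2 and Kdm1a and without genes on the X or Y chromosome. Of 21896 genes measured, 77 had such a symbol, and 68 remained after 3 genes were left out by name and 6 by chromosome. RNA was taken at E13.5 from the mouse cortical VZ–SVZ, the germinal zones that line the ventricle, labelled as strain C57/BL6. There was 1 library from Rcor2fl/fl embryos, which carry floxed Rcor2 alleles and are called the control below, and 1 from Rcor2cko embryos, in which the NesCre transgene, driven by Nestin in neural progenitors, deletes the floxed first exons. How many embryos went into each library is not given in the sources used here. Values are FPKM, fragments divided by transcript length and sequencing depth, so that levels can be compared between genes. Differences are log2 changes from the control to Rcor2cko, with 0.1 FPKM added to both values. With 1 library per genotype no difference has a replicate check, no test of the genotypes was possible, and each value compares these 2 libraries only.

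Chromatin enzymes set how accessible a gene is. Histone deacetylases and sirtuins remove acetyl groups, lysine demethylases remove methyl groups from histones, and DNA methyltransferases and TET dioxygenases add and oxidise methyl groups on cytosine. Polycomb complexes silence developmental genes, and the CHD, BAF and ISWI complexes move nucleosomes with energy from ATP. Rcor2 itself is no enzyme but a co-repressor that binds the demethylase LSD1, encoded by Kdm1a, and in the developing cortex several of these complexes exchange subunits as progenitors become neurons.

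Over the whole gene, Rcor2 was at 90.6 and 55.7 FPKM (here and below, the control value comes first), a sum that includes exons outside the deleted part. Markers of radial glia, intermediate progenitors and neurons were present in both libraries, with Vim at 308 and 303 FPKM, Eomes at 80.9 and 68.1 FPKM and Tubb3 at 568 and 521 FPKM. The libraries differed in X- and Y-linked genes and in choroid plexus genes. In all comparisons below, on autosomes too, the genotype and the sex of the embryos therefore cannot be told apart. Xist was at 177 and 0.109 FPKM and the Y-linked Eif2s3y at 0 and 19.8 FPKM, and 3 choroid plexus markers summed to 0.243 and 58.6 FPKM, nearly all of it from Ttr, which was listed at 0 in the control. Low FPKM values fell on steps of whole fragments, and from these scaling totals of 18841696 and 25479937 fragments were recovered. For a transcript of 2000 nt, 3 fragments correspond to 0.0882 and 0.0654 FPKM.

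Most chromatin enzyme genes were at nearly the same level in the 2 libraries. Of the 68 genes, 66 reached 1 FPKM in one or both libraries and were compared. The others were Dnmt3l, a cofactor of DNA methylation in germ cells that was listed at 0 in both libraries, and Kdm4d, listed at 0 in the control and at 0.0638 FPKM (4 fragments) in Rcor2cko. The 66 genes were well expressed, with medians of 18.5 and 17.5 FPKM, against 10.5 and 10.4 FPKM over all 11777 genes compared. Only Chd5 was past 1.5-fold, 1 of 66 genes (1.52%), against 5.54% of all genes. Chd5 was on the higher side, where 3.79% of all genes were, and none of the 66 was among the 1.76% on the lower side. At a smaller difference, a ratio of 5 to 4 (a log2 change of 0.32), 3 genes were higher in the Rcor2cko library, against a background of 8.54%, and 3 were lower, against 6.92%. Together these are 9.09% of the 66 genes, against 15.5% of all genes. The background depends on level: among the 8737 genes that reached 5 FPKM, 2.38% were past 1.5-fold and 9.18% past 5 to 4, and of the 62 enzymes among them 1 (1.61%) and 5 (8.06%). At comparable levels, the share of enzymes that differed was near that of other genes.

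**Figure D1:**
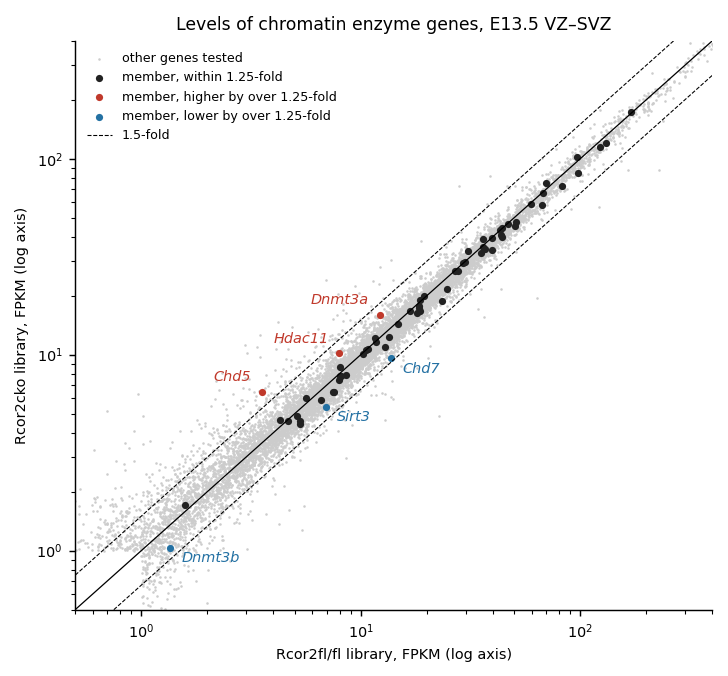
FPKM of each gene in the Rcor2fl/fl library (x axis) and the Rcor2cko library (y axis), both on log axes. Large points are the 66 chromatin enzyme genes and grey points the other genes compared. Dashed lines mark 1.5-fold, and Chd5 is the only large point outside them.

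The differences were small and leaned towards lower values. The median log2 change was -0.05 over the 66 genes and -0.03 over all genes compared, and 44 of the 66 genes (66.7%) were within 1.1-fold, against 54.6% of all genes. In the deposited FPKM, 18 genes (27.3%) were higher in the Rcor2cko library and 48 (72.7%) lower, against 42.4% and 57.6% of all genes, and among genes that reached 5 FPKM 25.8% of enzymes were higher against 39.4% of all. This split depended on scaling: after the median log2 change of genes at or above 1 FPKM in both libraries, -0.035, was set to 0, 47.0% of the 66 genes were higher, against 50.4% of all genes. Fragments could be recovered for 43 of the 66 genes, those with 1 RefSeq transcript of at least 1000 nt, with medians of 2003 and 2432 fragments. A 95% Clopper-Pearson (exact) interval was computed for each log2 ratio of fragments, covering counting error only, and it excluded 0 for 20 of these 43 genes (46.5%). Over all genes with recovered fragments the share was 37.7%, at lower medians of 510.5 and 678 fragments per gene. By direction, 5 of the 43 were higher and 15 lower, or 11.6% and 34.9%, against 13.7% and 23.9% of all genes. This split depended on scaling too: with the median set to 0, 8 were higher and 9 lower, or 18.6% and 20.9%, against 17.7% of all genes on each side. Intervals that end between -0.035 and 0, such as those of Bmi1, Hdac4 and Sirt7 below, include 0 after this scaling. Those that begin between -0.035 and 0, such as that of Tet2, exclude 0 after it. The wider 95% FPKM intervals were apart for 3 of the 66 genes (4.55%), namely Chd5, Chd7 and Dnmt3a, against 3.47% of all genes. They are those of the files, except for genes with several transcripts, whose control interval was combined from the transcripts. This combination takes the errors of the transcripts as independent.

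**Figure D2:**
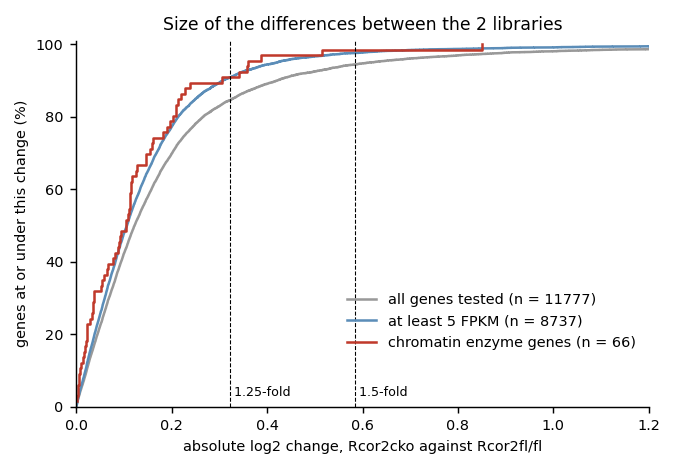
Cumulative share of genes (y axis, percent) by absolute log2 change between the 2 libraries (x axis). The 66 chromatin enzyme genes run close to the 8737 genes that reached 5 FPKM and above the 11777 genes compared, whose changes include those of genes with low values. Dashed lines mark ratios of 5 to 4 and of 1.5.

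The largest difference was in Chd5, a remodelling ATPase of the NuRD type known from neurons. In mm9 Chd5 spans chr4:151712760-151764303 on the plus strand. It was at 3.53 and 6.45 FPKM, 1.80-fold higher in the Rcor2cko library, or 0.85 on the log2 scale. Fragments were not recovered because Chd5 has 2 transcripts. Its 95% FPKM intervals, from 2.91 to 4.15 and from 5.51 to 7.39 FPKM, do not overlap. The first of these intervals was combined from the 2 transcripts. Dnmt3a, which methylates DNA de novo, was at 12.2 and 16 FPKM (log2 change 0.39). Its intervals, from 10.6 to 13.8 and from 13.9 to 18.1 FPKM, only just part. The control interval of Dnmt3a was combined in the same way, and the gap between the 2 intervals rests on that combination. Hdac11, the sole class IV deacetylase, was at 7.98 and 10.1 FPKM (log2 change 0.34), from 346 and 593 fragments and with a 95% exact interval from 0.15 to 0.54. The FPKM intervals of Hdac11 overlap.

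Genes of other cells differed along with these 3. All 5 markers of ventral, GABAergic neurons that were examined (Dlx1, Dlx2, Dlx5, Gad1 and Gad2) were past 1.5-fold higher, and their summed level was 17.1 and 50.5 FPKM. The 6 of 8 neuronal markers that were found summed to 1337 and 1284 FPKM, with log2 changes from -0.13 to 0.06. Not all of them mark every neuron, and the sum includes Neurod6 at 399 and 386 FPKM. Of 8 radial glial markers 5 were lower, with a median log2 change of -0.08. Their sum was 873 and 1021 FPKM, but 501 and 482 FPKM without Fabp7, which was at 372 and 539 FPKM. Intermediate progenitor markers (4 genes) summed to 234 and 224 FPKM. Microglial markers were also higher, with a sum of 5.88 and 8.06 FPKM for 3 genes, while endothelial markers were at 19.9 and 21.2 FPKM and blood markers lower, at 237 and 173 FPKM, for 3 genes each. What part the ventral neurons, or any other cells, had in the values of Chd5, Dnmt3a and Hdac11 was not tested, and in bulk RNA more cells of a type cannot be told apart from more RNA per cell.

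On the lower side, Chd7 differed most. Chd7, a remodeller of progenitor enhancers mutated in human CHARGE syndrome, spans chr4:8617553-8794806 in mm9. Its level was 13.8 and 9.60 FPKM (log2 change -0.52). Its 2397 and 2260 fragments gave an interval from -0.60 to -0.44. Its FPKM intervals do not overlap. Sirt3, a mitochondrial deacetylase, was at 6.96 and 5.40 FPKM (-0.36), and Dnmt3b, the second de novo methyltransferase, was at 1.36 and 1.04 FPKM, also -0.36. The FPKM intervals of both genes overlap. Sirt3 overlaps the protein-coding genes Ric8 and Psmd13 on the other strand, and whether fragments were assigned by strand is not given in the sources used here. Just short of 5 to 4 was Kdm6b, which removes methyl groups from lysine 27 of histone H3, at 23.3 and 18.9 FPKM (-0.31, interval -0.38 to -0.24). The 7 markers of cycling cells were all lower too, except Pcna once the libraries were rescaled, with a sum of 351 and 328 FPKM and log2 changes from -0.23 to 0.00, and their part in these values was not tested.

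The starts of Chd5, the only gene past 1.5-fold, and of Dnmt3a and Dnmt3b, which differed in opposite directions, are shown with each CG dinucleotide, the substrate of DNA methylation, in capitals. They are RefSeq promoters of build GRCm38.p6, all on the plus strand, from 250 bases before to 50 after the start: the first of 2 starts of Chd5 at chr4:152338401-152338700, the first of 3 starts of Dnmt3a at chr12:3806730-3807029, its most downstream start at chr12:3891494-3891793, and Dnmt3b at chr2:153649199-153649498.
Chd5: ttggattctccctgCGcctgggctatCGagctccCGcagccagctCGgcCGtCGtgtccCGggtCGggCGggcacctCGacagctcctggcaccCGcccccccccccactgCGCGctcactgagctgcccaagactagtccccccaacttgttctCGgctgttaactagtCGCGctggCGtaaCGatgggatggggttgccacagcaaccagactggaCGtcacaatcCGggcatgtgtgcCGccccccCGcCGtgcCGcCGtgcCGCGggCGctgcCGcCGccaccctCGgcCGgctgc
Dnmt3a, first start: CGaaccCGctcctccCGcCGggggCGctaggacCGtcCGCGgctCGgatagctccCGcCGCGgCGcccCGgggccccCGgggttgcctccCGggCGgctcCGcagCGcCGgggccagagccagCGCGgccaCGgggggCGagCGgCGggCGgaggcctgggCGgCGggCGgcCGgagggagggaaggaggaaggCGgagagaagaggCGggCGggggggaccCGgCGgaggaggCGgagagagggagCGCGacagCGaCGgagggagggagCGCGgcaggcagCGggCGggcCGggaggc
Dnmt3a, downstream start: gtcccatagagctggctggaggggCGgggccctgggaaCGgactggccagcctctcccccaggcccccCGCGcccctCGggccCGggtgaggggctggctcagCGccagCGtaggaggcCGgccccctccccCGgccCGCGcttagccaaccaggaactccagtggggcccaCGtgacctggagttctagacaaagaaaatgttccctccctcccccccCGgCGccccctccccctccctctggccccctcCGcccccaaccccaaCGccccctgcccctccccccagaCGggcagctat
Dnmt3b: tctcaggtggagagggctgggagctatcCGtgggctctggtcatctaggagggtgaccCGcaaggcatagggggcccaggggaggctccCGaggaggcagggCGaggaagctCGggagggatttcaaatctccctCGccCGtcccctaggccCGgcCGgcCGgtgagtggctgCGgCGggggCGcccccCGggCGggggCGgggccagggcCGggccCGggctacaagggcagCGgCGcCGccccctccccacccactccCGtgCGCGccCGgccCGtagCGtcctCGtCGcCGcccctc

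These promoters hold 32 CG dinucleotides in Chd5, 46 and 18 at the first and the downstream start of Dnmt3a, and 30 in Dnmt3b, all within 300 bases. The first start of Dnmt3a is the richest of the 4, and only 1.61% of 27025 genes have as many at their first listed start. Promoters of 54 of the 68 enzymes were in the table, with a median of 23 CG dinucleotides against 7 over all 27025 genes. These 27025 genes were not limited to expressed ones, and no background of expressed genes was computed. The motif GGGCGG, searched on both strands, was present in 42 of the 54 promoters (77.8%) and in 35.9% of the 27025, and TATAAA, also on both strands, in 2 (3.70%) and 14.2%.

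The maintenance enzyme Dnmt1, which copies methylation after DNA replication, was the most abundant DNA methyltransferase, at 43.7 and 40.6 FPKM. Because Dnmt3a was higher and Dnmt3b lower, the share of Dnmt3a in their summed FPKM was 90% and 93.9%. Among the TET dioxygenases, Tet3 was highest, at 18.5 and 17.8 FPKM, followed by Tet2 at 5.64 and 6.01 FPKM and Tet1 at 4.30 and 4.66 FPKM. The sum of the 3 was 28.4 and 28.5 FPKM. The order of levels was the same in both libraries. Without rescaling, the interval of Tet1, from 0.01 to 0.23, was the only one of the 3 that excluded 0. After median scaling that of Tet2, from -0.03 to 0.21 before it, excludes 0 too.

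All 4 class IIa deacetylases, which shuttle between nucleus and cytoplasm and act with MEF2 factors, were lower in the Rcor2cko library in the deposited FPKM, and 3 of 4 were after rescaling, where Hdac7 turned higher. Of all genes, 57.6% were lower in the deposited FPKM. Hdac5 turned higher when the highest transcript stood for each gene, a setting that lowers the control alone. Hdac5 was highest of them at 39.8 and 34.4 FPKM (log2 change -0.21), and Hdac9 had the largest change, -0.24 (5.26 and 4.45 FPKM), with an interval from -0.44 to -0.05. Hdac4 was at 5.29 and 4.60 FPKM, with an interval from -0.41 to just under 0. Hdac7 was at 10.8 and 10.7 FPKM, with an interval from -0.15 to 0.12 that includes 0. The FPKM intervals overlapped for each of the 4 genes. Hdac3, the class I enzyme of the NCoR and SMRT co-repressors, was level at 47.0 and 46.5 FPKM, and Hdac10, a class IIb enzyme, was at 8.14 and 7.78 FPKM.

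The 7 sirtuins, deacylases that depend on NAD, were likewise all lower (6 of 7 after rescaling, where Sirt2 turned higher), with log2 changes from -0.36 in Sirt3 to -0.02 in Sirt2 and a median of -0.16. Of all genes, 57.6% were lower in the deposited FPKM. Sirt1, Sirt2, Sirt3 and Sirt6 turned higher when the highest transcript stood for each gene, a setting that lowers the control alone. Sirt2, which is mostly cytoplasmic, was highest at 39.7 and 39.2 FPKM. After Sirt3, the larger changes were -0.23 in the nucleolar Sirt7 (12.9 and 11.0 FPKM, interval -0.44 to -0.03) and -0.21 in the mitochondrial Sirt5 (7.50 and 6.46 FPKM), whose interval from -0.53 to 0.09 includes 0. Sirt7 overlaps Mafg on its own strand, so its fragments are uncertain. Only Sirt3 of the 7 was past 5 to 4, and the FPKM intervals overlapped in all 7.

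Of 12 lysine demethylases, 11 were compared. Their levels ran from 8.01 to 50.6 FPKM in the control, with Kdm4a, a demethylase of lysines 9 and 36 of histone H3, at the top at 50.6 and 45.3 FPKM. Kdm1b, the paralogue of LSD1, was at 10.3 and 10.1 FPKM (log2 change -0.03, interval -0.17 to 0.10). The other JmjC enzymes with intervals below 0, besides Kdm6b, were Kdm4b at -0.18 (24.7 and 21.8 FPKM) and Kdm2a at -0.16 (18.5 and 16.7 FPKM). Kdm4a, also at -0.16, has no such interval because it has several transcripts, and neither have Kdm2b, Kdm3a and Kdm4c. Kdm5b, which demethylates lysine 4 of histone H3 and is known in neural progenitors, was at 36.1 and 35.3 FPKM, Kdm5a was level at 11.7 FPKM in both, and Kdm2b, Kdm3a, Kdm3b and Kdm4c had log2 changes from 0.003 to 0.11. Of the 10 JmjC genes 4 were higher, and 6 were after median scaling, where Kdm5a and Kdm5b turned higher. Of all genes, 42.4% were higher in the deposited FPKM and 50.4% after median scaling.

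Genes of Polycomb repressive complex 2 and HP1 genes were nearly level. The 4 genes of Polycomb repressive complex 2, which methylates lysine 27 of histone H3, had log2 changes from -0.07 to -0.004, differences small enough that Ezh2, Suz12 and Eed turned higher after median scaling. Its catalytic subunit Ezh2 was at 67.5 and 66.5 FPKM, Suz12 at 29.7 and 29.6 FPKM, Eed at 16.7 and 16.7 FPKM, and the second methyltransferase Ezh1 at 5.12 and 4.88 FPKM. Ezh2 made up 93% and 93.2% of the summed FPKM of the pair. In Polycomb repressive complex 1, the ubiquitin ligase Rnf2 was slightly higher, at 30.9 and 33.8 FPKM with an interval from 0.03 to 0.22, and its partner Bmi1, which sustains neural stem cells, slightly lower, at 36.9 and 34.7 FPKM with an interval from -0.17 to -0.01. Among the Polycomb readers, which bind methylated lysine 27, Cbx2 was at 14.8 and 14.4 FPKM, Cbx6 at 13.4 and 12.3 FPKM, Cbx8 at 7.57 and 6.49 FPKM and Cbx7 at 1.57 and 1.71 FPKM. Cbx6 overlaps Npcd on its own strand, so their fragments are uncertain. The HP1 genes, which bind methylated lysine 9 of histone H3, had log2 changes from -0.02 to 0.02, and Cbx3, at 170.0 and 173 FPKM, was the most abundant of all 68 genes in both libraries. Cbx1 was at 59.8 and 58.9 FPKM and Cbx5 at 43.9 and 44.2 FPKM.

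**Figure D3:**
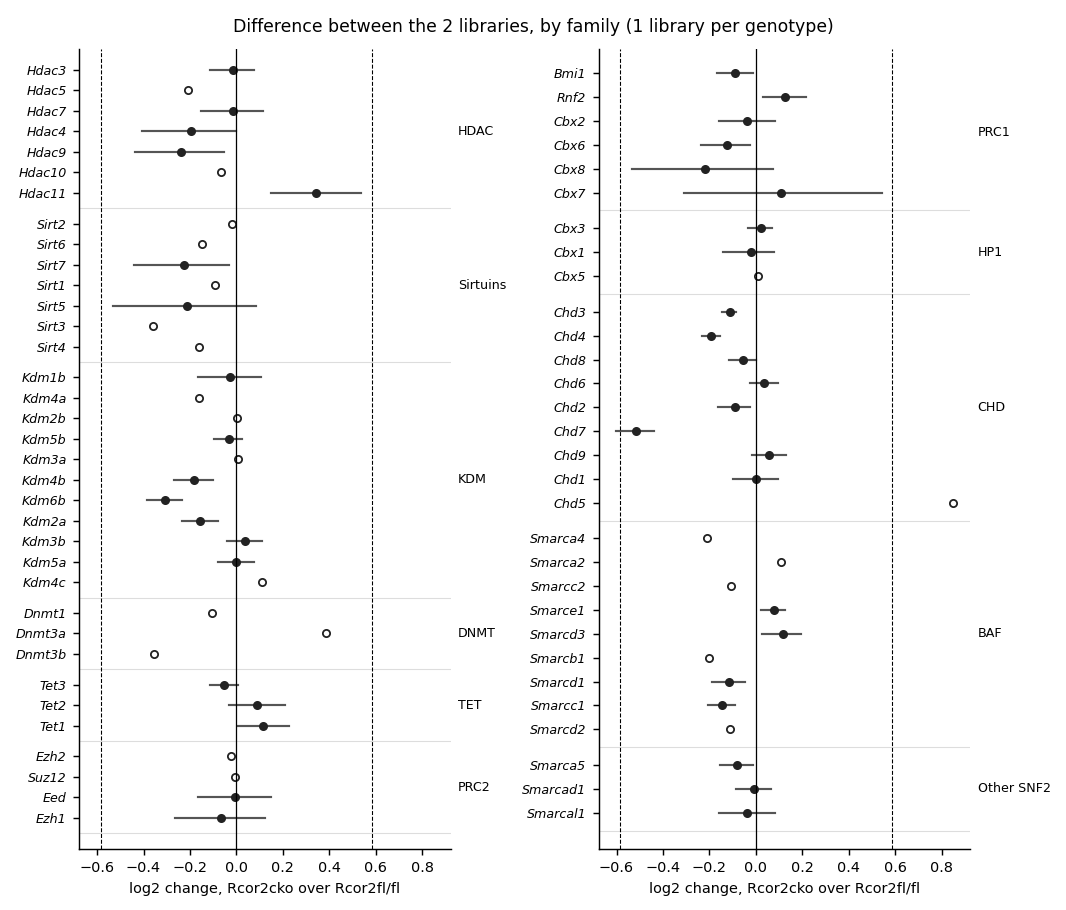
Log2 change of 65 genes, Rcor2cko over Rcor2fl/fl (x axis), by family and in order of level within each. Bars are 95% exact intervals of counting error for the 42 of them with recovered fragments (filled points); open points are genes with several transcripts, without such an interval. Dashed lines mark 1.5-fold, and only Chd5 lies outside them.

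Levels of the CHD genes ran from 3.53 FPKM in Chd5 to 131 FPKM in Chd3 in the control. Chd3 and Chd4, the ATPases of the NuRD deacetylase complex, were at 131 and 121 FPKM and at 82.7 and 72.4 FPKM, with log2 changes of -0.11 and -0.19 and intervals from -0.14 to -0.09 and from -0.23 to -0.15. Chd5, higher where these 2 were lower, contributed just 1.63% and 3.23% of the summed FPKM of the 3 genes. Chd8, an autism-associated remodeller, was at 27.6 and 26.6 FPKM, and Chd1, Chd2, Chd6 and Chd9 had log2 changes from -0.09 to 0.06. The ISWI ATPase Smarca5 was at 35.1 and 33.2 FPKM, and the SNF2-type Smarcad1 and Smarcal1 were at 27.0 and 26.8 FPKM and at 8.02 and 7.81 FPKM.

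The 9 BAF (SWI/SNF) genes were strongly expressed, with a summed level of 594 and 569 FPKM. Of the alternative ATPases, Smarca4 (BRG1) was at 98.1 and 84.9 FPKM (-0.21), and Smarca2 (BRM) at 36.1 and 39.0 FPKM, a change of 0.11. The share of Smarca4 in the pair was 73.1% and 68.5%, a difference of -4.55 points that was -0.08 points when the highest transcript stood for each gene. The FPKM intervals of both genes overlap between the libraries. A like pattern was seen among the BAF60 subunits: Smarcd1 was lower, at 51.2 and 47.3 FPKM (interval -0.19 to -0.05), while Smarcd3, known as BAF60c, was higher, at 69.4 and 75.3 FPKM with an interval from 0.03 to 0.19. The third, Smarcd2, was at 8.56 and 7.91 FPKM. Smarcd3 made up 53.8% and 57.7% of the 3 BAF60 genes. The FPKM intervals of all 3 overlap between the libraries. Smarcd1 and Smarcd3 each overlap protein-coding genes on the other strand, Chpf2 in the case of Smarcd3. The scaffolds Smarcc2 (BAF170) and Smarcc1 (BAF155) were at 123.03 and 114 FPKM and at 44.0 and 39.8 FPKM, both slightly lower, so that the share of Smarcc2 was nearly level at 73.6% and 74.2%. The core subunit Smarcb1 was at 66.8 and 58.1 FPKM (-0.20), and Smarce1 at 96.7 and 102 FPKM, a change of 0.08.

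**Figure D4:**
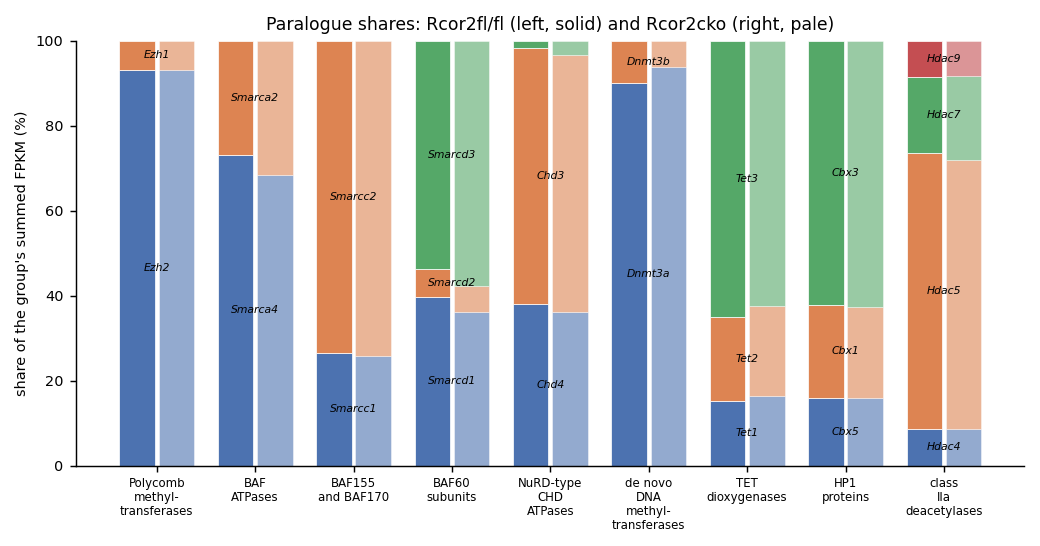
Share of each paralogue in the summed FPKM of its group (y axis, percent), with the Rcor2fl/fl library at the left of each pair of bars and the Rcor2cko library at the right. The largest shift was in the BAF ATPases, where Smarca4 was at 73.1% and 68.5%; the thin unlabelled band is Chd5.

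Transcripts could be described in the control only, since the Rcor2cko values are given per gene. Of the 68 enzymes, 44 had 1 RefSeq transcript and 24 had several. For 6 of these 24 genes a main transcript held over 90% of the gene's FPKM, as in Ezh2, where the transcript of 2652 nt held 90.9%. For another 6 no transcript held 60%. Among them was Smarca2, whose short transcript of 1962 nt, from its own start site, was at 17.0 FPKM (46.9% of the gene) beside the long one of 5813 nt at 19.2 FPKM. In Kdm2b the shortest of 3 transcripts, 3519 nt and also with its own start, held 68.9%. The long transcript of Dnmt3a, 9735 nt, held 85% and the short one of 5424 nt 15%, and Dnmt3b was assigned wholly to the shortest of its 5 transcripts, 4070 nt. Chd5 was divided between transcripts of 9486 nt (61.6%) and 9375 nt (38.4%), which share a start in the deposited values. Which of these transcripts carried the differences in Chd5, Dnmt3a and Smarca2 cannot be read from these values.

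**Figure D5:**
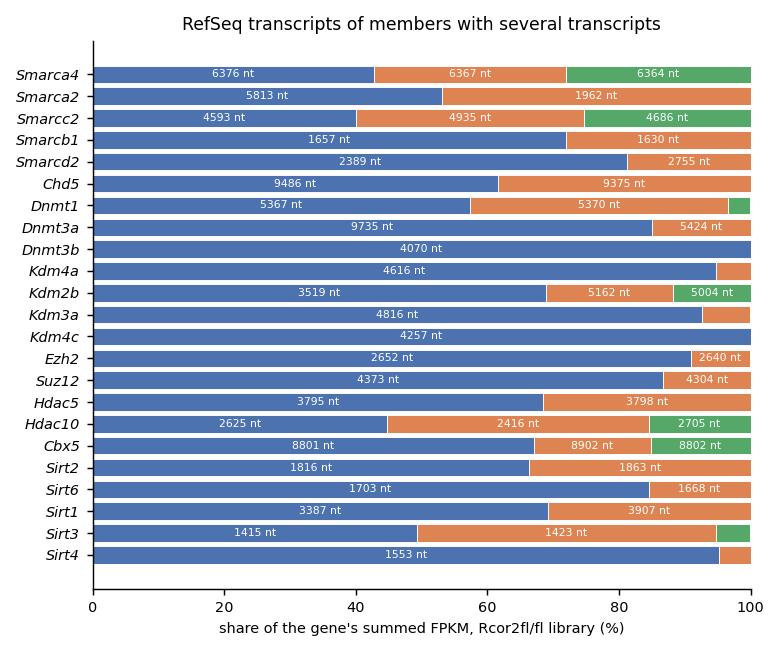
Share of each RefSeq transcript in the summed FPKM of its gene in the Rcor2fl/fl library (x axis, percent) for the 23 expressed enzymes with several transcripts, labelled by length in nt where wide enough. Smarca2 is divided almost evenly between a long and a short transcript, whereas Dnmt3b is on a lone transcript.

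The other chromatin genes examined were similarly even. Of 117 acetyltransferases, methyltransferases and further subunits of these complexes, all with at least 1 FPKM, none was past 1.5-fold, against 5.54% of all genes. Among genes that reached 5 FPKM, as most of the 117 did, the background was lower. There 2.38% were past 1.5-fold and 9.18% past 5 to 4, in either direction. Past 5 to 4, 5 (4.27%) were lower and none was higher, against 6.92% and 8.54% of all genes, and their median log2 change was -0.07, against -0.03 over all genes. In the deposited FPKM 28 (23.9%) were higher and 89 lower, and after median scaling 39 (33.3%) and 78, where 42.4% and 50.4% of all genes were higher. The 5 genes were Dpf3, a BAF subunit, at 4.90 and 3.40 FPKM (-0.52), Gatad2b, a NuRD subunit, at 22.8 and 16.6 FPKM (-0.46), Smyd2, a lysine methyltransferase, at 14.2 and 10.3 FPKM (-0.46), Pcgf5, a Polycomb subunit, at 4.32 and 3.27 FPKM (-0.39), and Prdm8, a member of the PRDM family, at 20.6 and 15.9 FPKM (-0.37). Without rescaling, the exact interval excluded 0 for each of the 5, although that of Pcgf5 ended at -0.01 and includes 0 after median scaling. The FPKM intervals overlapped for all 5. Of the 8 NuRD subunits, which act with Chd3, Chd4 and Chd5, 7 were lower and the median was -0.19. Of all genes, 57.6% were lower in the deposited FPKM. Other lists leaned the same way, with 7 of 8 arginine methyltransferases, 8 of 9 readers of DNA methylation and their partners and 23 of 26 methyltransferases lower. Medians of the other lists were -0.07 for 10 acetyltransferases and for 26 methyltransferases, -0.09 for 8 arginine methyltransferases, for 22 Polycomb subunits and for 9 readers of DNA methylation and their partners, -0.08 for 19 BAF subunits and -0.04 for 15 INO80, SRCAP and ISWI partners. The most abundant of the 117 was Prmt1, an arginine methyltransferase, at 160.3 and 152 FPKM. In the remaining lists the most abundant were Trim28 at 122.6 and 109 FPKM, Bcl11a at 84.2 and 70.5 FPKM, Phc2 at 69.2 and 62.4 FPKM, Rbbp4 at 64.0 and 60.8 FPKM, Ehmt2 at 53.8 and 51.2 FPKM, Ruvbl2 at 47.2 and 41.7 FPKM and Myst4 at 33.9 and 34.5 FPKM.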

How the data were processed

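RNA from the E13.5 VZ–SVZ of 1 Rcor2fl/fl and 1 Rcor2cko library was measured by mRNA sequencing with a stranded kit. The authors mapped reads to mm9 with TopHat at default settings (version 2.0.3 in their methods, 1.3.3 in the submitters' processing notes, which also name Cufflinks 1.2.0) and deposited FPKM values with 95% FPKM intervals, per RefSeq transcript for Rcor2fl/fl (27641 rows) and per gene for Rcor2cko (21896 rows).

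Transcript rows were summed per gene, with half-widths of their intervals added in quadrature. Genes that reached 1 FPKM in one or both libraries were compared, with a pseudocount of 0.1 FPKM and no further scaling. Whole fragments could be recovered for 14350 single-transcript genes of 1000 nt or more, where FPKM times the length less an offset (194.0 and 200.9 nt) is a multiple of 1 fragment. Of values up to 100 fragments, 99.3% and 99.4% came out within 0.1 of a whole number. These steps were tested on simulated data. Intervals and the floor of 3 fragments cover counting error only.

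The values of 1 gene are not reported here, although counts include it. The genes and lists were chosen with earlier results of these data known. Named with values were the most abundant gene of each family, those past a ratio of 5 to 4, the 5 largest differences in each direction, the paralogues, and the most abundant of each list of other chromatin genes. Further genes, among them the 5 other chromatin genes past 5 to 4, were named after their values were seen. Alternatives were 2 pseudocounts, 3 scalings, 3 filters, the highest transcript, single-transcript genes, recovered fragments and FPKM intervals. Positions are from GENCODE vM1 on NCBIM37 (mm9), in which all 68 symbols were found. Promoters are from RefSeq on GRCm38.p6. Python 3.11.15, numpy 2.4.6, pandas 2.3.3, scipy 1.17.1 and matplotlib 3.10.9 were used.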

Additional observations from a re-analysis of the deposited data

How the results depend on the processing

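Counts, shares and medians over the 66 genes and the log2 change of each gene were recomputed under 12 alternatives, where the alternative gives a value. Of the 66 genes, 53 stayed throughout within an interval around their value. It was the 95% exact interval for the 43 genes with recovered fragments. For the 23 with several transcripts it joined opposite ends of the 2 FPKM intervals, which is wider. Sirt1 stayed within such an interval although it went from -0.09 to 0.43. Of the 6 genes past 5 to 4 only Sirt3 changed sign, to 0.64, when the highest transcript stood for each gene. That setting lowers the Rcor2fl/fl library alone, whose values are per transcript, and it gave 8 genes past 1.5-fold higher, 14 past 5 to 4 higher, 47.0% of genes higher and a median of -0.003. Past 5 to 4 in either direction were 24.2% of the 66 genes, against 24.5% of all genes. Of all genes, 11.9% were past 1.5-fold in either direction and 51.2% were higher, with a median of 0.006. With Sirt3, 13 genes lower in the deposited FPKM turned higher there, among them Dnmt1, Hdac5, Sirt1, Sirt2, Sirt6, Smarca4, Smarcb1 and Smarcc2. The share of Smarcc2 in its pair differed by 21.4 points, against 0.55. Chd5 stayed past 1.5-fold wherever it was included, with log2 changes from 0.72 to 1.53. Restricting to genes with 1 transcript, or to recovered fragments, leaves out Chd5, Dnmt3a, Dnmt3b and Sirt3, and gave 0 genes past 1.5-fold higher and, past 5 to 4, 1 higher (Hdac11) and 1 lower (Chd7). These are 4.65% of the 43 enzymes left, against 15.7% and 15.6% of all genes in the 2 settings. Past 1.5-fold in either direction were 5.71% and 5.41% of all genes. Past 5 to 4 lower, 1 gene (Chd7) remained with a pseudocount of 1 and with FPKM intervals required not to overlap, and on the higher side both settings left 2 genes, without Hdac11. In either direction, both settings left 4.55% of the 66 genes, against 11% and 3.47% of all genes. Without a filter 2 of 68 genes were past 1.5-fold higher, the other being Kdm4d, against 8.95% of all genes past 1.5-fold in either direction. The share of genes higher was 47.0% with median scaling, 45.5% with upper-quartile scaling and 42.4% with quantile normalization. Of all genes, 50.4%, 49% and 46.8% were higher with these scalings. The median was -0.010 and -0.016 with the first and second of them, against 0.002 and -0.004 over all genes. Median scaling of the counting intervals gave 8 of 43 genes higher and 9 lower, against 17.7% of all genes on each side. This setting, the paralogue shares by highest transcript and the radial glial sum without Fabp7 were chosen after seeing the data. The causes were not tested beyond what these settings themselves set. No paired analysis was possible because each genotype has a single library. Depth limits Kdm4d, with 0 and 4 fragments, and Cbx7, with 80 and 117.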

Other observations

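The enzyme genes on the X and Y chromosomes were kept out of the comparison and are given as values. Kdm5c and Kdm6a, X-linked demethylases known to escape X inactivation, were at 28.2 and 19.0 FPKM (-0.57) and at 12.8 and 9.45 FPKM (-0.43), control first. Kdm5d, the Y-linked relative of Kdm5c, was at 0.0101 and 7.04 FPKM, from 1 and 946 fragments. The X-linked Hdac6 and Hdac8 were nearly level, at 17.9 and 17.5 FPKM and at 9.37 and 9.28 FPKM, and the ISWI ATPase Smarca1 was higher, at 6.63 and 8.78 FPKM (log2 change 0.40). For these genes, as for the autosomal genes compared above, the genotype and the sex of the embryos in each library cannot be told apart.

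The partners of Rcor2 that were left out by name were close to level. Kdm1a was at 83.7 and 81.1 FPKM, with an interval from -0.11 to 0.01, Hdac2 at 154 and 158 FPKM, with an interval from -0.03 to 0.08, and Hdac1 at 47.5 and 44.3 FPKM, with an interval from -0.20 to -0.01.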
